A study of Rattus norvegicus with 20 samples.

Results

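Brain endothelial cells line the blood vessels of the brain and, unlike most endothelium, seal the gaps between themselves and control by transport what enters the tissue. Tight junction strands are built from claudin and occludin proteins that are tied to the cytoskeleton by scaffold proteins, while transporters carry glucose and lipids inwards and pump foreign compounds back to the blood. Adhesion proteins and receptors on the endothelial surface hold the cells together and receive signals that keep the vessels stable. Here 8 genes of this barrier were taken by symbol, *Cldn5*, *Ocln*, *Tjp1*, *Pecam1*, *Tek*, *Slc2a1*, *Abcb1a* and *Mfsd2a*, and all 8 were present among the 31038 genes of the count matrix. *Cldn5*, *Ocln* and *Tjp1* belong to the tight junction, *Pecam1* and *Tek* sit on the cell surface, and *Slc2a1*, *Abcb1a* and *Mfsd2a* are transporters.

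Reads per gene were counted in the medial prefrontal cortex (mPFC) of 20 male Sprague-Dawley rats, with 1 library per rat from poly(A)-selected RNA. The LSD group (n = 10) was given 0.16 mg/kg lysergic acid diethylamide by intraperitoneal injection on alternate days over 90 days, and the control group (n = 10) was given sterile saline on the same schedule. Rats were 6 to 8 weeks old when treatment began, were housed singly, and stopped treatment 3 weeks before collection according to the deposited description, whereas the methods of the study give a longer interval and a higher age. Each library mixes all cells of the dissected piece of cortex, so that fewer endothelial cells and less RNA per endothelial cell cannot be told apart.

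The libraries of LSD-treated rats held 16346629 to 25552681 reads on genes, and those of controls 11098076 to 24201351. Levels are given as reads per 1000000 after TMM scaling (TMM-normalised RPM), which centres the bulk of genes. RPM does not account for transcript length, so levels are compared between rats and not between genes. All 8 genes passed the filter on low counts (5 or more reads in 10 or more libraries), with 129 reads or more in every rat. Of 28 endothelial identity symbols, 26 were in the matrix and 25 passed this filter. The absent *Eltd1* and *Gpr116* are older names of *Adgrl4* and *Adgrf5*, which are on the list and were tested. Among the 25 was *Cdh5*, the cadherin of endothelial junctions, with 195 to 653 reads per rat, so endothelial RNA was present in all libraries. Several of the 8 genes are known from other cells as well, since *Tjp1* is used by many cell types, *Slc2a1* also by astrocytes, and *Pecam1* also by platelets and leukocytes.

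LSD-treated rats had higher *Tjp1* and *Abcb1a* than controls, each by about 1.19-fold, while *Cldn5* was at 0.88 of its control level just outside the threshold. The remaining 5 genes had log2 fold changes from -0.17 to 0.12 and did not pass. Differences were tested with edgeR's quasi-likelihood test over all 16605 genes that passed the filter, adjusted by the Benjamini-Hochberg procedure, and called at 0.05. In this test 2 of the 8 genes were called higher in LSD-treated rats, where 6.48% of all genes tested were called higher, and 0 of the 8 were called lower, where 8.54% of all genes were. Without adjustment, 1 of the 8 was lower with p under 0.05 by edgeR, where 30.8% of all genes tested had such a p in either direction. DESeq2 called the same 2 genes higher (8.75% of all genes by that tool) and 1 gene, *Cldn5*, lower (11.2%). The median log2 fold change of the 8 genes was 0.04, against 0.00 for all genes tested.

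**Figure D1:**
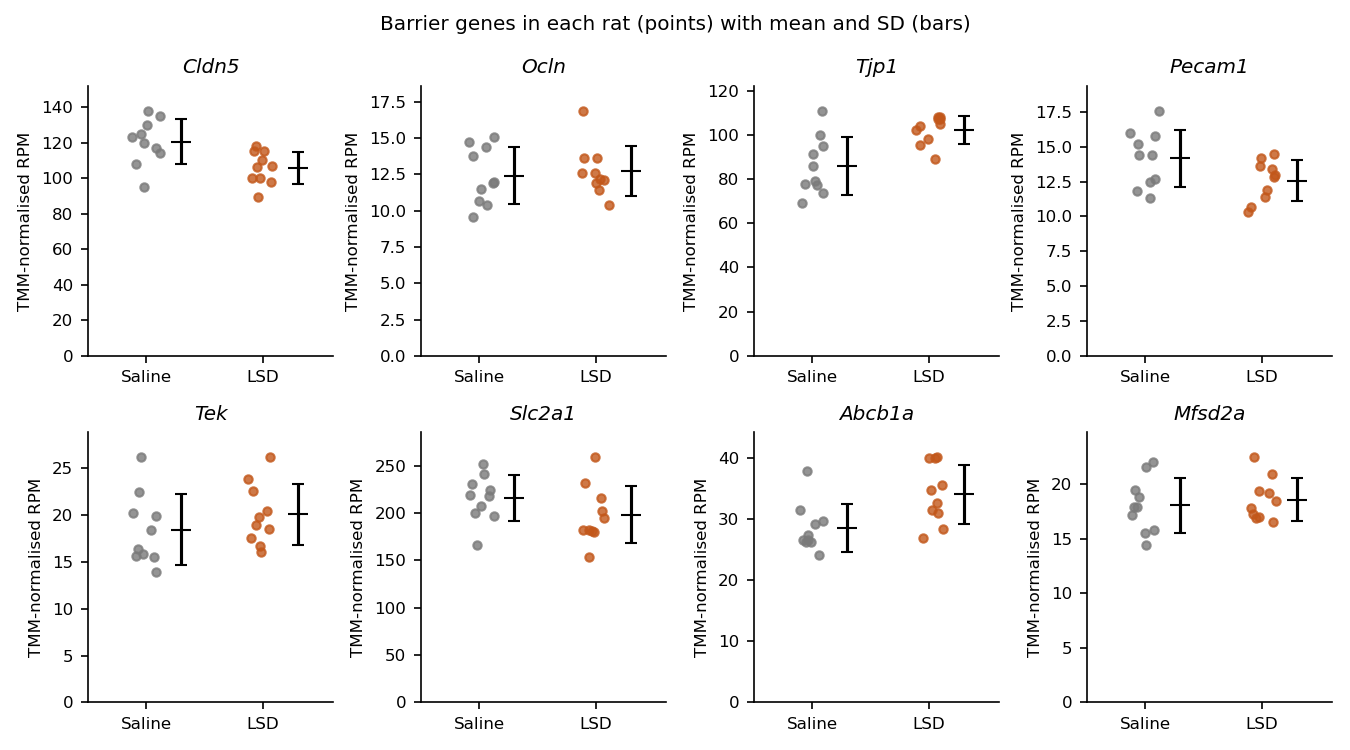
TMM-normalised RPM (vertical axes, each from 0) of the 8 barrier genes in each of the 10 saline and 10 LSD rats (points), with the mean and SD of each group (bars). For *Tjp1* the LSD rats lie between 88.9 and 108 and 6 of the 10 controls lie below all of them, whereas for *Ocln* and *Mfsd2a* the groups cover nearly the same range.

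*Cldn5* encodes claudin-5, the main sealing claudin of brain vessels. Its level ran from 89.5 to 118 TMM-normalised RPM in LSD rats (median 107) and from 95.2 to 138 in saline rats (median 122). All 10 LSD-treated rats were below the control median, and 6 of the 10 controls were above every LSD-treated rat, while the other 4 controls, saline rats 2, 3, 7 and 8, lay within the LSD range. Means were 106 ± 9.11 in LSD-treated rats and 120 ± 12.9 in controls (SD, n = 10 each). The log2 fold change was -0.18 (standard error 0.0632, 95% interval from -0.31 to -0.05), and did not pass the threshold (adjusted p = 0.0517, edgeR quasi-likelihood). *Cldn5* passed the threshold when LSD rat 9 (adjusted p = 0.0484), LSD rat 10 (0.0420), saline rat 2 (0.0386), saline rat 3 (0.0490) or saline rat 8 (0.0161) was left out of the same edgeR fit, and with DESeq2 (adjusted p = 0.0285). With any other rat left out it did not pass, with adjusted p up to 0.0986. Nor did it pass with total-count scaling (log2 fold change -0.14, adjusted p = 0.179) or without a filter on low counts (0.0998) in the edgeR fit.

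*Tjp1* encodes ZO-1, the scaffold that links claudins and occludin to actin. It had 88.9 to 108 TMM-normalised RPM in LSD rats (median 105) and 69.2 to 111 in saline rats (median 82.7). Every LSD-treated rat was above the control median and 6 controls were below all LSD-treated rats, while saline rat 10, at 111, was above them all. Means were 103 ± 6.44 in LSD-treated rats and 86.1 ± 13.1 in controls (SD, n = 10 each), so that the coefficient of variation was 6.29% with LSD and 15.2% with saline. This coefficient was also larger with saline for *Cldn5*, *Ocln*, *Pecam1*, *Tek* and *Mfsd2a*, but not for *Slc2a1* and *Abcb1a*. *Tjp1* rose by a log2 fold change of 0.25 (standard error 0.0714, 95% interval from 0.10 to 0.40, adjusted p = 0.0230, edgeR quasi-likelihood). It passed the threshold with each of the 20 rats left out in turn, with adjusted p between 0.00441 and 0.0439 in the same edgeR fit, but not in the edgeR fits with offsets for genomic span (adjusted p = 0.0954), centred offsets (0.126) or a replicate block with centred offsets (0.0773), described with the spans further on.

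*Ocln* encodes occludin, a membrane protein of the same junctions. Levels were 10.4 to 16.9 TMM-normalised RPM with LSD (median 12.4) and 9.58 to 15.1 with saline (median 12.0), and the groups overlapped almost entirely. LSD rat 10 was the highest of all rats at 16.9. The log2 fold change was 0.03 with a 95% interval from -0.16 to 0.22 (adjusted p = 0.843, edgeR quasi-likelihood), and it turned to -0.02 without LSD rat 10.

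*Pecam1* encodes CD31, an adhesion protein at the borders between endothelial cells. It ran from 10.3 to 14.5 TMM-normalised RPM in LSD rats (median 12.9) and from 11.3 to 17.6 in saline rats (median 14.4). Of the LSD-treated rats 9 lay below the control median, and 4 controls were above every LSD-treated rat. Its log2 fold change of -0.17 had a standard error of 0.0845 and a 95% interval from -0.35 to 0.00, and it did not pass the threshold (adjusted p = 0.164, edgeR quasi-likelihood).

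*Tek* encodes Tie2, the receptor for angiopoietins that keeps endothelium quiescent. Its levels were 16.1 to 26.2 TMM-normalised RPM with LSD (median 19.4) and 13.9 to 26.2 with saline (median 17.4). The highest rat of each group was its rat 10, and 8 of the 10 LSD rats lay above the control median. The log2 fold change was 0.12, with a 95% interval from -0.11 to 0.34, or 0.929- to 1.27-fold (adjusted p = 0.493, edgeR quasi-likelihood).

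*Abcb1a* encodes one of the rodent forms of P-glycoprotein, the pump that returns drugs and other foreign compounds to the blood. It ran from 26.9 to 40.1 TMM-normalised RPM in LSD rats (median 33.6) and from 24.1 to 37.8 in saline rats (median 27.0). Of the LSD rats 9 lay above the control median and 3 were above every control, and saline rat 10, at 37.8, stood above the other controls. Means were 34.1 ± 4.80 in LSD-treated rats and 28.5 ± 3.87 in controls (SD, n = 10 each). *Abcb1a* rose by a log2 fold change of 0.25 (standard error 0.0834, 95% interval from 0.08 to 0.43, adjusted p = 0.0416, edgeR quasi-likelihood). This call was lost, with log2 fold changes from 0.23 to 0.26, when any of 12 rats was left out: with LSD rat 2, 4, 8, 9 or 10 left out the adjusted p was 0.0604, 0.0803, 0.0696, 0.0738 and 0.0709, and with saline rat 1, 3, 4, 5, 6, 8 or 9 left out it was 0.0567, 0.0746, 0.0677, 0.0704, 0.0640, 0.0593 and 0.0685. Its close paralog *Abcb1b*, the other rodent form, had only 5 to 24 reads per rat, with 0.630 ± 0.191 TMM-normalised RPM with LSD and 0.659 ± 0.194 with saline (SD, n = 10 each; log2 fold change -0.06, adjusted p = 0.876, edgeR quasi-likelihood). Reads shared by both copies could be divided between them or dropped in the counting, and adding the counts of *Abcb1b* to those of *Abcb1a* gave a log2 fold change of 0.25 (adjusted p = 0.0433 from the same test). In the GRCr8 annotation *Abcb1a* also overlaps *Rundc3b* on the opposite strand, which had 351 to 1009 reads per rat and a log2 fold change of 0.01, and the strand setting of the counting was not given in the sources used here.

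*Slc2a1* encodes GLUT1, which carries glucose into the brain. It had 154 to 259 TMM-normalised RPM with LSD (median 189) and 166 to 252 with saline (median 219). Of the LSD-treated rats 8 were below the control median, yet LSD rat 10 was the highest of all rats. The log2 fold change was -0.12, with a 95% interval from -0.29 to 0.05 (adjusted p = 0.337, edgeR quasi-likelihood).

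*Mfsd2a* encodes a lipid transporter that takes up lysophosphatidylcholine carrying omega-3 fatty acids and is known to restrain vesicle traffic across the barrier. Levels were 16.5 to 22.5 TMM-normalised RPM with LSD (median 18.2) and 14.4 to 22 with saline (median 17.9), with 5 LSD-treated rats on either side of the control median. Its log2 fold change was 0.04, with a 95% interval from -0.12 to 0.20, or 0.920- to 1.15-fold (adjusted p = 0.773, edgeR quasi-likelihood).

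Rat 10 of each group was often at the top. LSD rat 10 had the highest level of its group in 5 of the 8 genes and saline rat 10 likewise in 5 of 8, and the labels do not say whether the same number marks a shared litter or day. With both of these rats left out, an alternative chosen after seeing the data, the log2 fold change was 0.30 for *Tjp1* (adjusted p = 0.00662), 0.28 for *Abcb1a* (adjusted p = 0.0156) and -0.20 for *Cldn5* (adjusted p = 0.0413), all by edgeR's quasi-likelihood test with 9 rats per group. The call for *Cldn5* was therefore gained without them.

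The 8 genes differ greatly in genomic span, the distance from the start to the end of a gene with its introns. In the GRCr8 annotation *Cldn5* spans 1427 bases, *Mfsd2a* 14896, *Slc2a1* 28221, *Ocln* 50905, *Pecam1* 61740, *Tek* 126721, *Abcb1a* 176054 and *Tjp1* 244689. The 3 genes with the longest spans had the 3 highest log2 fold changes, and the shortest had the lowest. Among all genes tested, those with a span over 100000 bases numbered 2221 and had a median log2 change of 0.10, with 17.2% of them called higher and 2.52% lower. The 3527 genes with a span under 10000 bases had a median of -0.11, with 1.33% of them called higher and 18.3% lower. When each library's trend with span was removed by centred offsets in the edgeR fit, the log2 fold change fell to 0.14 for *Tjp1* (adjusted p = 0.126) and to 0.16 for *Abcb1a* (adjusted p = 0.206), so neither call was kept, where 3.62% of all genes were called higher and 6.68% lower under these offsets. Under the same offsets *Cldn5* was at -0.09 (adjusted p = 0.302), while *Pecam1* moved away from 0 to -0.24 (adjusted p = 0.0707), still short of the threshold.

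**Figure D2:**
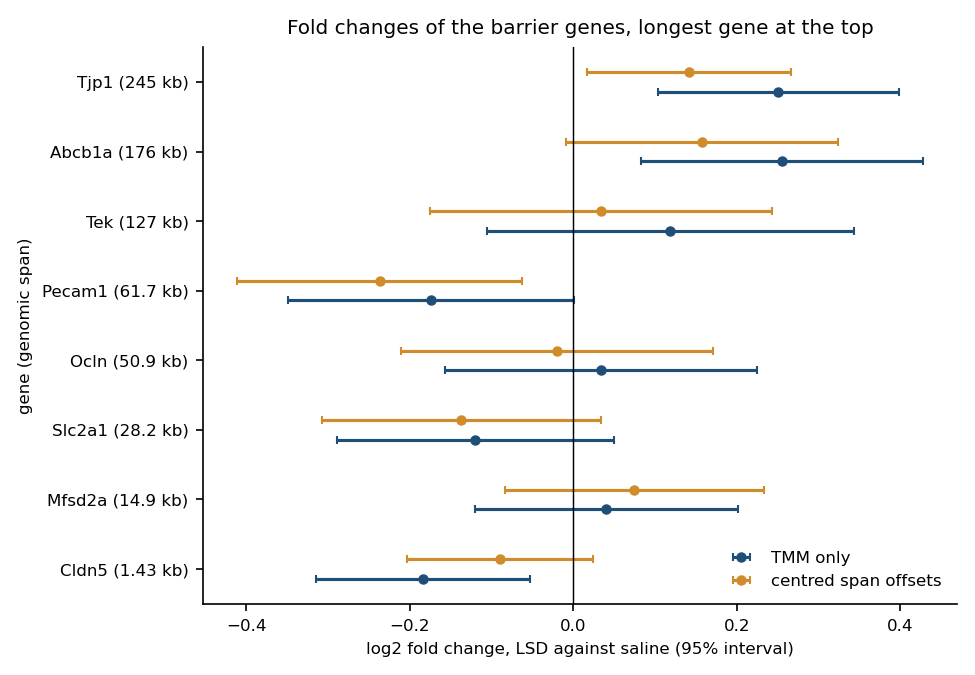
Log2 fold change of LSD against saline (horizontal axis) with its 95% interval for the 8 genes, ordered by genomic span from *Tjp1* at the top to *Cldn5* at the bottom, from the edgeR fit with TMM scaling alone and from the fit with centred span offsets. The offsets drew *Tjp1* from 0.25 to 0.14, *Abcb1a* from 0.25 to 0.16 and *Cldn5* from -0.18 to -0.09.

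**Figure D3:**
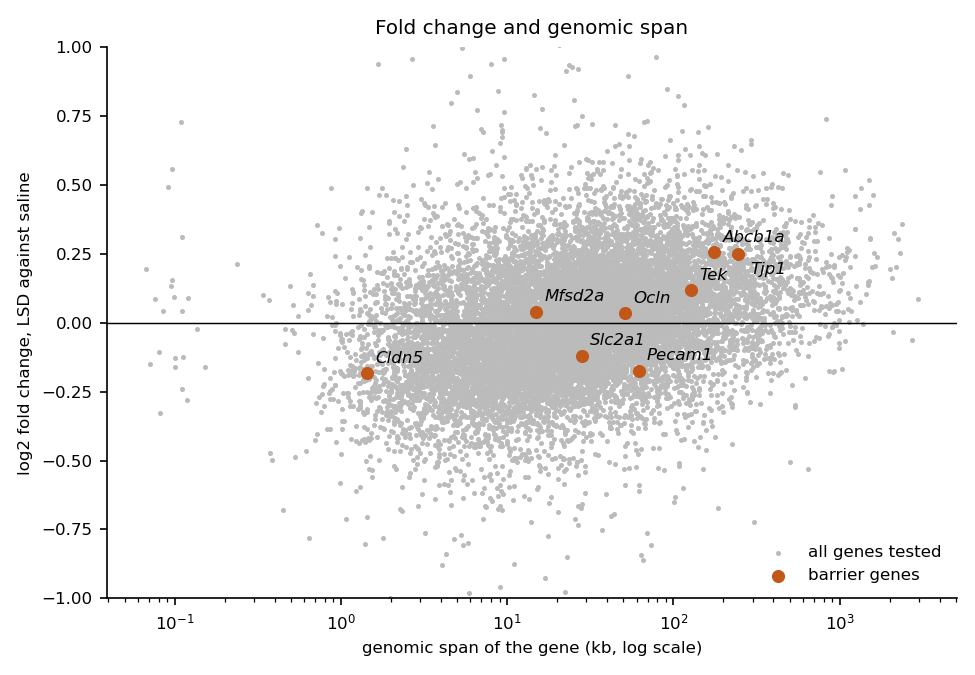
Log2 fold change of LSD against saline (vertical axis, cut at -1 and 1, which leaves out 14 genes) against genomic span in kb (log scale) for the 14266 genes tested that had a span (grey) and the 8 barrier genes (coloured, named). *Cldn5* lies at the short end below 0, and *Tek*, *Abcb1a* and *Tjp1* at the long end above 0.

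Because *Tjp1* and *Abcb1a* were both called higher and *Cldn5* lay on the other side of 0, the 250 bases before the start of each are shown, from RefSeq's GRCr8 promoter table. This table had entries for 5 of the 8 genes, *Cldn5*, *Ocln*, *Tjp1*, *Slc2a1* and *Abcb1a*. All 3 sequences are read 5′ to 3′ on the minus strand of the genome, at chr1:128325361-128325610 for *Tjp1*, chr4:26397649-26397898 for *Abcb1a* and chr11:95718599-95718848 for *Cldn5*, and capitals mark a GC box (GGGCGG or its reverse complement CCGCCC).
Tjp1: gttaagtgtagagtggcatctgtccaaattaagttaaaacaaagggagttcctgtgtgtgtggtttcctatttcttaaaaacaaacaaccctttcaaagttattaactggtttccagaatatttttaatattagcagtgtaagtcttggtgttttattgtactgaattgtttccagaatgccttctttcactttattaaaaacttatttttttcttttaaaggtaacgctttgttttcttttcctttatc
Abcb1a: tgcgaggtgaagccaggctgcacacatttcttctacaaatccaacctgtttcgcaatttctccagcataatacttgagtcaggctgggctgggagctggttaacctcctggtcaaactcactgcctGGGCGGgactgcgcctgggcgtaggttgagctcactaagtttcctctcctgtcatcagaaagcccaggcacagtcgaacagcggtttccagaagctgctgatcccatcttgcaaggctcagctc
Cldn5: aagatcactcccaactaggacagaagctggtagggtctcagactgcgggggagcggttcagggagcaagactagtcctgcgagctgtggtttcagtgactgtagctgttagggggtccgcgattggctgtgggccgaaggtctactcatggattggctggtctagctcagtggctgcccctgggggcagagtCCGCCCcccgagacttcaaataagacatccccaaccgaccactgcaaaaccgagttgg
The window of *Tjp1* is 30.4% G and C with 1 CpG, that of *Abcb1a* is 54.0% with 7 CpG and that of *Cldn5* 58.4% with 10, against medians of 52.0% and 6 over 27457 RefSeq promoters. The start used for *Tjp1* lies 179658 bases inside the annotated gene and that for *Abcb1a* 90808 bases inside, so other starts of both genes are not shown, whereas the window of *Cldn5* ends at the gene's outer edge. Of 6 motifs searched on both strands, the GC box was found in 3 of the 5 windows (*Abcb1a*, *Cldn5* and *Slc2a1*) and is held by 32.4% of all promoters. The ETS motif CCGGAA (13.4% of all promoters), the GATA motif AGATAA (10%), the forkhead motif TGTTTAC (3.25%), the TATA box TATAAA (13.1%) and the E-box CACGTG (5.79%) were in none of the 5 windows.

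Some of the 8 genes varied together across rats. Levels as log2(TMM-normalised RPM + 1) were centred within each group, so that the difference between LSD and saline does not enter, and compared over the 20 rats. Of 28 pairs 24 had a positive Pearson r, and 6 passed an adjusted p of 0.05 over the 28 pairs (two-sided permutation test, 100000 shuffles of rats within groups). *Tek* and *Abcb1a* varied together most closely, with r = 0.778 and Spearman's rho = 0.767 (permutation p = 5e-05 and 0.00012, adjusted p = 0.00140 and 0.00336), and r was 0.639 without the 2 rats farthest from the median of *Tek*. *Ocln* and *Pecam1* had r = 0.733 and rho = 0.756 (permutation p = 0.00052 and 0.00036, adjusted p = 0.00728 and 0.00504), with r = 0.711 without the 2 rats farthest from the median of *Ocln*. These pairs held in each group alone, with r of 0.733 (LSD) and 0.841 (saline) for *Tek* and *Abcb1a* and 0.781 and 0.700 for *Ocln* and *Pecam1*.

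*Pecam1* and *Tek* (r = 0.686, rho = 0.729, permutation p = 0.00176 and 0.00082, adjusted p = 0.0148 and 0.00765), *Pecam1* and *Abcb1a* (r = 0.620, rho = 0.626, permutation p = 0.00413 and 0.00417, adjusted p = 0.0199 and 0.0234) and *Tjp1* and *Abcb1a* (r = 0.609, rho = 0.597, permutation p = 0.00212 and 0.00325, adjusted p = 0.0148 and 0.0227) also passed. Their r without the 2 most distant rats was 0.562, 0.544 and 0.611. *Ocln* and *Tek* passed with Pearson's r of 0.634 (permutation p = 0.00427, adjusted p = 0.0199) but not with rho of 0.552 (permutation p = 0.0169, adjusted p = 0.0790), and r was 0.534 without the 2 most distant rats. *Mfsd2a* passed with no other gene, and its highest r was 0.406, with *Slc2a1*. *Cldn5* and *Tjp1*, partners in the junction, had r = -0.303 and rho = -0.299 (permutation p = 0.252 and 0.226, adjusted p = 0.470 and 0.444), and r was -0.287 without the 2 rats farthest from the median of *Cldn5*. Within groups it was 0.447 in LSD-treated rats and -0.576 in controls, and the difference between the groups was not tested. The negative sign of this pair depended on the scaling, since r over all rats was 0.0832 with centred span offsets and -0.000515 with total-count RPM. In saline rat 9 *Cldn5* was the highest of the controls and *Tjp1* the lowest. With total-count RPM, which keeps each library's shift over all genes, 12 of the 28 pairs passed. With centred span offsets 9 passed, and the r of *Cldn5* was 0.722 with *Abcb1a*, 0.614 with *Pecam1* and 0.574 with *Tek*, against 0.416, 0.460 and 0.251 without offsets.

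**Figure D4:**
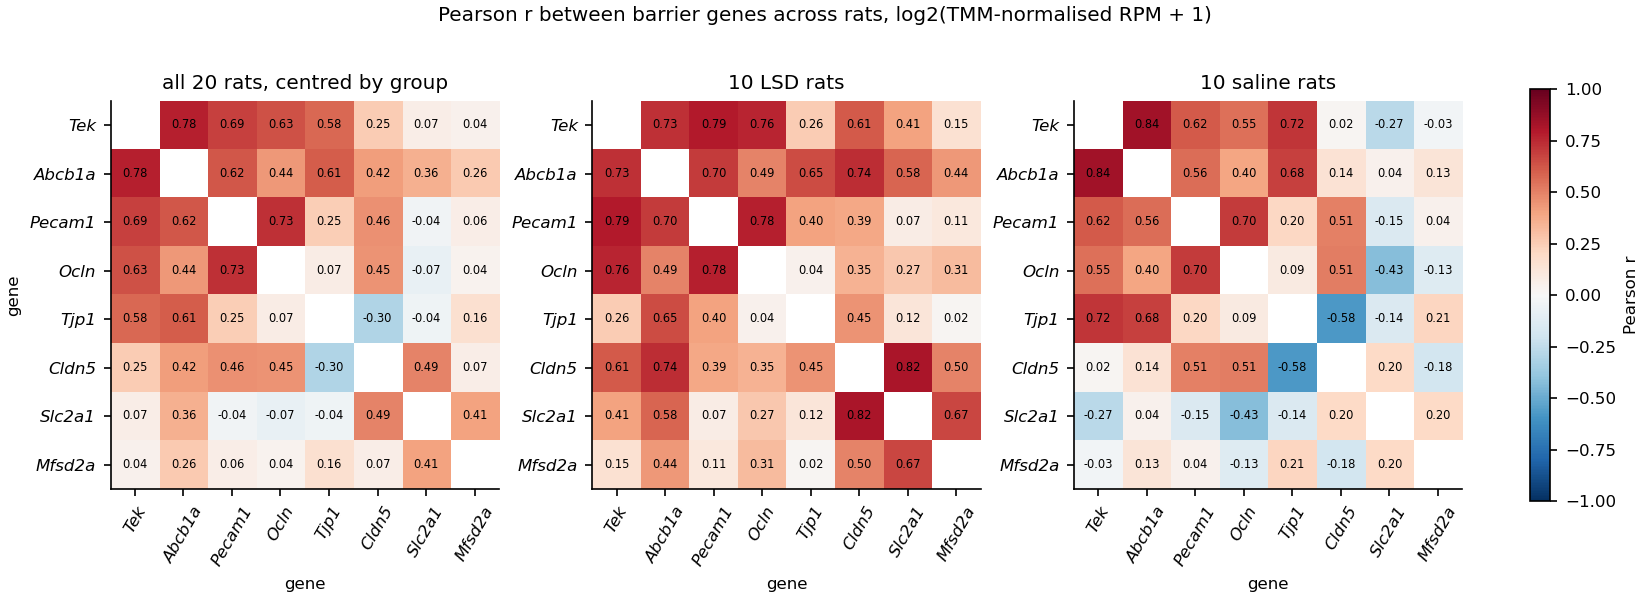
Pearson r of log2(TMM-normalised RPM + 1) between each pair of the 8 barrier genes (rows and columns), over all 20 rats after centring by group and in the 10 LSD and 10 saline rats alone, with red for positive and blue for negative r. Over all rats the highest r is that of *Tek* and *Abcb1a* (0.778) and the lowest that of *Cldn5* and *Tjp1* (-0.303, or 0.0832 with centred span offsets, which are not plotted).

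Over the 25 endothelial identity genes tested, the median r with *Tek* was 0.582, with *Abcb1a* 0.453, with *Pecam1* 0.383, with *Ocln* 0.314, with *Cldn5* 0.274, with *Slc2a1* 0.261, with *Tjp1* 0.247 and with *Mfsd2a* 0.0313. With astrocyte markers the median r was higher than this for *Cldn5* (0.406), *Ocln* (0.454), *Slc2a1* (0.332) and *Mfsd2a* (0.120), and with mural cell markers it was higher for *Cldn5* (0.318). With neuron markers the median r was 0.176 for *Slc2a1* and negative for all the others, from -0.494 for *Ocln* to -0.145 for *Cldn5*. The median r of each of the 8 genes with all genes tested lay between 0.00101 and 0.0576. These values are a description over 20 rats that share library and depth with both genes of a pair.

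The genes whose centred levels were most like each of the 8 over the 20 rats were picked by their r, and so carry no test. For *Abcb1a* the first was *Adgrf5* (r = 0.866), an adhesion receptor of endothelium that is on the endothelial identity list, followed by *Chrnb4* (0.859), a nicotinic receptor subunit, and *Osmr* (0.846), the oncostatin M receptor. For *Tek* it was *Cyyr1* (r = 0.882), followed by *Foxn2* (0.853) and *Zfx* (0.852). *Slc2a1* was most like *Notch4* (r = 0.821), a Notch receptor of endothelium, *Lipe* (0.801) and *Lsr* (0.800), the latter a protein of tricellular junctions. *Cldn5* was most like *Igfbp7* (r = 0.837), which brain endothelium secretes, *Lgi4* (0.835) and *Slc25a18* (0.815). *Tjp1* was most like *LOC102546572* (r = 0.912), *Nipbl* (0.902), which loads cohesin onto chromosomes, and *Chd1* (0.885), a chromatin remodeller, none of them on an endothelial list. *Ocln* was most like *Eif3e* (r = 0.858), *Vip* (0.845), an interneuron peptide, and *Arl4a* (0.844). *Pecam1* was most like *Cenpj* (r = 0.792), *LOC102549869* (0.757) and *Ttc12* (0.750). *Mfsd2a* was most like *LOC103691261* (r = 0.869), *LOC102547938* (0.796) and *Tnfrsf11a* (0.775).

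The wider set of endothelial and barrier genes comprised 97 further gene symbols in 6 lists, some of them older and newer names of the same gene. Tests covered 86 of them. Of these, 2 were called higher and 7 lower in LSD-treated rats and 77 were not called, which is 10.5% of the list against 15.0% of all genes tested, and the median log2 fold change was -0.06. At an unadjusted p under 0.05 there were 20 of 86, against 30.8% of all genes tested. The shares of all genes called higher and lower (6.48% and 8.54% by edgeR, 8.75% and 11.2% by DESeq2) are the background for the counts in each list that follow. With centred span offsets 2 of the 86 were called higher and 6 lower, where 3.62% and 6.68% of all genes were. Of the 9 called without offsets, 6 were still called, namely *Bsg*, *Egfl7*, *Eng*, *Lrp5*, *Tfrc* and *Wnt7a*. The remaining calls under these offsets were of genes not called without them. With total-count scaling *Cldn3* (adjusted p = 0.0642), *Eng* (0.0745) and *Plvap* (0.0672) no longer passed in the edgeR fit.

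Endothelial identity genes held 0 higher and 2 lower of 25, with 18 negative log2 fold changes and a median of -0.09, where 49.6% of all genes tested were negative and 8.54% were called lower. Of the markers of other cells, 10 of 13 for mural cells, 7 of 7 for red blood cells and 6 of 6 for oligodendrocytes were negative, and 2 of 7 for microglia. Most of those for red blood cells are globin genes, and *Hbb-b1* and *Slc4a1* had log2 fold changes near 0 (-0.03 and -0.02). Negative values were also held by 4 of 8 markers for astrocytes, 3 of 8 for neurons and 3 of 5 for platelets and leukocytes. For fibroblasts and meninges they were 4 of 5, and for the choroid plexus 4 of 5. The share of negative values over all genes varied with genomic span. It was 70.8% for genes under 10000 bases, whereas genes over 100000 bases had a positive median of 0.10. Signs in these lists were not set against genes of similar span or counted under total-count scaling. Whether fewer cells of a type lie behind them was not tested. *Egfl7*, a secreted protein of endothelium, fell from 25.6 ± 3.48 TMM-normalised RPM in controls to 20.7 ± 2.75 in LSD-treated rats (SD, n = 10 each; log2 fold change -0.31, standard error 0.0839, adjusted p = 0.0194, edgeR quasi-likelihood). No LSD-treated rat was above the control median of *Egfl7*. *Eng*, a co-receptor for TGF-beta family ligands, fell from 50.8 ± 7.76 to 42.7 ± 4.94 (SD, n = 10 each; log2 fold change -0.25, adjusted p = 0.0422 from the same edgeR test). *Flt1* and *Kdr*, receptors for VEGF, had log2 fold changes of 0.00 and -0.16 (adjusted p = 0.979 and 0.243 from the same edgeR test), and *Cdh5* of -0.06 (adjusted p = 0.804). At an unadjusted p under 0.05 there were 7 of the 25, against 30.8% of all genes, and DESeq2 called 2 of them lower, against 11.2%.

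Junction partners of claudin-5 and ZO-1 held 1 higher and 1 lower of 13 (6.48% and 8.54% of all genes), with a median log2 fold change of 0.06. *Afdn*, the afadin scaffold of adherens junctions, rose by 0.26 on the log2 scale (adjusted p = 0.0231, edgeR quasi-likelihood), and its span of 129441 bases is long as well (0.18 with centred span offsets, adjusted p = 0.0620). *Cldn3*, another claudin with 16 to 38 reads per rat, fell by 0.53 on the log2 scale (adjusted p = 0.0494 from the same test) and spans 1473 bases (-0.44 with centred span offsets, adjusted p = 0.107).

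Barrier transporters held 1 higher and 1 lower of 20 (6.48% and 8.54% of all genes). *Tfrc*, the transferrin receptor that brings iron into cells, rose from 50.2 ± 9.24 to 63.9 ± 7.97 TMM-normalised RPM (SD, n = 10 each; log2 fold change 0.35, adjusted p = 0.0179, edgeR quasi-likelihood), with all 10 LSD-treated rats above the control median. *Bsg*, basigin, the partner of monocarboxylate transporters, fell from 843 ± 102 to 689 ± 47.7 (SD, n = 10 each; log2 fold change -0.29, adjusted p = 0.00807 from the same test), with no LSD-treated rat above the control median. *Tfrc* and *Bsg* are used by other brain cells too. *Abcg2*, the other main drug efflux pump of brain vessels, had a log2 fold change of 0.49 with a standard error of 0.208 and did not pass (adjusted p = 0.112 from the same test).

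Vesicle and activation genes held 1 lower of 8 (8.54% of all genes). It was *Plvap*, a protein of endothelial diaphragms that is scarce in a closed barrier, with 37 to 77 reads per rat and a log2 fold change of -0.37 (adjusted p = 0.0444, edgeR quasi-likelihood; -0.33 with centred span offsets, adjusted p = 0.0763). Of the angiopoietin pathway around *Tek*, edgeR called 0 of 7 and DESeq2 also 0. At an unadjusted p under 0.05 by edgeR there were 2 of 7, against 30.8% of all genes tested. *Angpt1* and *Angpt2*, ligands of the receptor, had log2 fold changes of 0.23 and -0.08, the co-receptor *Tie1* of -0.20 (adjusted p = 0.0920) and *Ptprb*, the phosphatase that acts on the receptor, of 0.23 (adjusted p = 0.0869). Genes of Wnt and Norrin barrier signalling, which induces barrier properties in brain endothelium, held 2 lower of 16 and 0 higher (8.54% and 6.48% of all genes). *Wnt7a*, a ligand made by neural cells, fell from 48.4 ± 3.58 to 39.8 ± 3.38 TMM-normalised RPM (SD, n = 10 each; log2 fold change -0.28, adjusted p = 0.00510, edgeR quasi-likelihood). *Lrp5*, a co-receptor, fell from 34.0 ± 6.06 to 25.9 ± 2.96 (SD, n = 10 each; log2 fold change -0.39, adjusted p = 0.0102 from the same test). For both genes all 10 LSD-treated rats were below the control median, and *Wnt7a* barely overlapped, with 35.6 to 44.7 in LSD rats against 44.3 to 55.1 in saline rats.

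**Figure D5:**
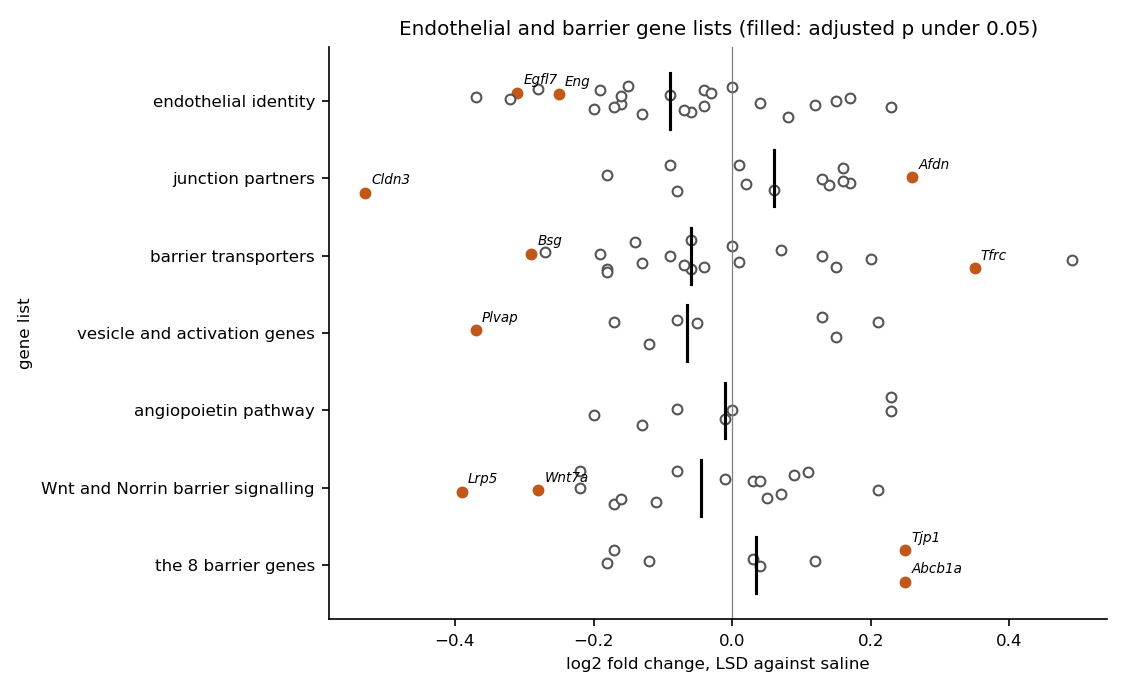
Log2 fold change of LSD against saline (horizontal axis) for each tested gene of 6 endothelial and barrier lists and for the 8 barrier genes (rows), filled and named where the adjusted p was under 0.05, with the median of each list as a black line. In the endothelial identity list 18 of 25 genes lie below 0.

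Markers of other cells moved as follows, and their part in the values above was not tested. Mural cell markers summed to 260 to 462 TMM-normalised RPM with LSD (median 351) and 287 to 694 with saline (median 372), with 1 of 13 called, *Kcnj8*, a potassium channel of pericytes, at a log2 fold change of -0.45 (adjusted p = 0.0188, edgeR quasi-likelihood). Red blood cell markers summed to 253 to 632 with LSD (median 444) and 344 to 951 with saline (median 554), and *Hbb*, a beta globin, was the 1 of 7 called (log2 fold change -0.50, adjusted p = 0.0434 from the same test). Astrocyte markers summed to 3390 to 4070 with LSD and 3580 to 4380 with saline, with *Slc1a2* higher (0.41, adjusted p = 0.0423) and *Aldoc* lower (-0.34, adjusted p = 0.00408 from the same test). *Aldoc* held the largest part of this sum, with means of 1210 with LSD and 1530 with saline. *Aqp4*, *Gja1* and *Slc1a3* had positive log2 fold changes and *Gjb6*, *Aldh1l1* and *Gfap* negative ones, none of them called. Neuron markers summed to 7900 to 9690 with LSD and 7940 to 10600 with saline, with *Gad2* higher (0.23, adjusted p = 0.0369) and *Tubb3* lower (-0.30, adjusted p = 0.0218). Oligodendrocyte markers summed to 2230 to 5760 with LSD (median 3850) and 2200 to 7480 with saline (median 4750). All 6 had negative log2 fold changes with a median of -0.35, and edgeR called 0 of 6 while DESeq2 called 1. At an unadjusted p under 0.05 by edgeR there were 3 of 6, against 30.8% of all genes tested. Platelet and leukocyte markers summed to 7.78 to 16.2 with LSD and 8.48 to 14.4 with saline, microglia markers to 269 to 437 and 268 to 362, fibroblast and meningeal markers to 36.8 to 220 and 55.1 to 343, and choroid plexus markers to 4.95 to 31.2 and 7.06 to 42.8. With centred span offsets *Hbb* (adjusted p = 0.106), *Slc1a2* (0.0809), *Gad2* (0.0905) and *Tubb3* (0.0577) no longer passed in the edgeR fit, and with total-count scaling *Hbb* did not either (adjusted p = 0.0745). In the platelet and leukocyte, microglia, fibroblast and choroid plexus lists edgeR and DESeq2 called 0 genes of 5, 7, 5 and 5 tested. In these lists 1, 0, 1 and 0 had an unadjusted p under 0.05 by edgeR, against 30.8% of all genes tested.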

How the data were processed

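Trimming (TrimGalore), alignment (HISAT2, genome build rn6) and counting per gene (HTSeq-count) were done by the authors, who deposited raw counts without normalisation. Versions, gene annotation and strand setting are not given in the sources used here. Of all reads in the count matrix, 25.5% to 29.0% per library stand in 5 entries without a gene name. These entries were not taken as genes and were left out. Groups and replicate numbers came from the sample labels. The 16605 genes with 5 or more reads in 10 or more libraries were tested with edgeR 4.0.16 in R 4.3.3 (quasi-likelihood F test, TMM, Benjamini-Hochberg over all genes, threshold 0.05). Standard errors are the log2 fold change divided by the root of F. On simulated counts for 10 against 10 rats with 1.5-fold changes, 145 of 197 changed genes and 4 unchanged ones were called among 16498. These changes were larger than the 1.19-fold of *Tjp1* and *Abcb1a*, and the simulated counts held no trend with genomic span. The simulation therefore does not give the power at the sizes observed here. P-values set the difference between groups against the spread between libraries of different rats, which includes counting noise. Depth is 11098076 to 25552681 reads on genes. The shares of counting noise and of differences between rats in that spread were not separated.

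Alternatives were DESeq2 1.42.0, other scalings and filters, 1 surrogate variable (sva 3.50.0), a block on replicate number, offsets for genomic span (50 bins smoothed over 5, GRCr8 spans for 85.9% of genes by symbol), reads drawn down to 11098076, and each rat left out. Correlations used Python 3.11.15 with numpy 2.4.6. The 8 genes, the 15 gene lists and the alternatives were chosen with earlier results of these data known. The motifs, the ratios of gene pairs and the fit without both rats numbered 10 were chosen after the counts were opened. Genes named are the 8, *Abcb1b*, list genes past the threshold, the genes most like each of the 8, and some further list genes named for their role after their values were seen.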

Additional observations from a re-analysis of the deposited data

Results flagged for a closer look

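*Ocln* in LSD rat 10, at 16.9 TMM-normalised RPM, stood apart from the other 9 LSD-treated rats, the next of which was at 13.6. The gap was 0.503 of the range of the group, above Dixon's 95% critical value for 10 samples. It was the only such value among 16 groups of 10 rats examined (8 genes in LSD-treated rats and controls), where chance gives about 1 in 20. The same rat also had the highest *Cldn5*, *Pecam1*, *Tek* and *Slc2a1* of its group.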

How the results depend on the processing

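Directions were kept by 7 of the 8 genes under all alternatives, that is with each rat left out and in 12 further fits (13 for *Abcb1a*). *Ocln* turned from 0.03 to -0.01 with span offsets, -0.02 with centred span offsets, -0.01 with the replicate block and centred span offsets, -0.02 without LSD rat 10 and -0.003 without saline rat 8, and ran up to 0.07 with other rats left out. Genes of the 8 called higher numbered 2 except 0 with span offsets, 0 with centred span offsets and 0 with the block and centred span offsets, and 1 to 2 when single rats were left out. Those called lower numbered 0 except 1, *Cldn5*, with median-ratio size factors, DESeq2, 1 surrogate variable, reads drawn down to the smallest library, both rats numbered 10 left out and the replicate block, and 0 to 1 when single rats were left out. The replicate numbers were not taken as pairs, since deviations of same-numbered rats correlated from -0.259 to 0.467, with 6 of 10 pairs over 0.1 and 1 LSD rat closest to its own number. The block raised all calls to 1355 higher and 1606 lower, and the wider set to 6 higher. All genes called higher moved from 1076 to 696 with span offsets and 601 with centred ones, and from 663 to 1669 with each rat left out (lowest without LSD rat 8, highest without saline rat 2; 705 without saline rat 4). All genes called lower moved from 1418 to 858 with total-count scaling, 836 without a filter on low counts and 853 with span offsets, and from 957 to 1907 with each rat left out. Total-count scaling lowered the share of lower calls from 56.9% to 36.3% and moved the median over all genes to 0.05 (log2). In the wider set, 7 lower became 4 with total-count scaling and 4 without the filter, and 4 to 12 when single rats were left out (4 without LSD rat 2, 3, 7, 8 or 9 or saline rat 1, 3, 4 or 5, 12 without saline rat 2). The number higher ran from 2 to 5, with 5 without saline rat 10. Pairs of the 8 genes past the threshold were 6, and 12 with total-count RPM. The cause of these changes was not tested.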

Other observations

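Ratios of the 8 genes within a rat were picked after the levels had been seen, and so carry no test. The log2 ratio of *Tjp1* to *Cldn5* reads ran from -0.27 to 0.11 in LSD rats (median -0.06) and from -1 to 0.08 in saline rats (median -0.46), with all 10 LSD-treated rats above the control median and 7 controls below every LSD-treated rat. Its SD was 0.12 with LSD and 0.33 with saline. The log2 ratio of *Abcb1a* to *Cldn5* ran from -1.86 to -1.42 with LSD (median -1.66) and from -2.40 to -1.70 with saline (median -2.16), with 6 LSD-treated rats above every control. The log2 ratio of *Abcb1a* to *Slc2a1* had medians of -2.48 and -2.97, and that of *Tek* to *Pecam1* of 0.66 and 0.38, and in both all 10 LSD-treated rats were above the control median. The log2 ratio of *Tjp1* to *Ocln* separated the groups less, with medians of 3.03 and 2.83. For it 9 LSD-treated rats were above the control median, 0 were above every control and 1 control was below every LSD-treated rat. In each of these ratios the upper gene has the longer genomic span.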
